A study of Saccharomyces cerevisiae with 30 samples.

Results

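Loss of the exosome nuclease Rrp44 was followed in one budding yeast strain, RRP44-AID, in which the protein carries a degron that auxin switches on. Every feature of the RRP44-AID table was described, which is 7126 features, and the libraries are 4 of the 30 of the series. The strain is BY4741 with OsTIR1 expressed from the GPD1 promoter at LEU2, RPB3-3xFLAG and RRP44-3xV5-IAA7::KanMX6, and the tag, OsTIR1 and the FLAG allele are in the mock libraries as well. OsTIR1 is a plant adapter that hands IAA7-tagged proteins to the proteasome when auxin is present. Cells in mid-log growth in YPD received 100 µM auxin for 20 min (2 libraries, A and B) or a mock treatment (2 libraries, A and B), and the letters mark strain isolates whose cultures were from separate days. RNA was total cellular RNA depleted of rRNA, read from strand-specific libraries of pooled cells. For comparison, WT (the same parent with OsTIR1 and RPB3-3xFLAG but no degron), RAT1-AID and LAS1-AID cells had been given the same auxin and mock treatments, with 2 libraries each.

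Rrp44, whose gene is DIS3 in RefSeq, is the catalytic subunit of the RNA exosome. It holds a 3′-to-5′ exonuclease and an endonuclease, and works with a ring of non-catalytic subunits in the nucleus and the cytoplasm. In the nucleus the exosome trims the 3′ ends of snoRNAs and of the 5.8S rRNA, and degrades aberrant tRNA precursors and the short-lived transcripts that the Nrd1-Nab3-Sen1 complex terminates, after the TRAMP complex has added a short adenosine tail. In the cytoplasm it degrades mRNA together with the Ski complex.

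Values are normalized counts, the read counts that the authors divided by a size factor. The smallest value of each library stands for 1 read if it is taken as the size of a step, and the libraries then hold 27859055 and 27571658 reads in auxin, against 20934052 and 26583727 in mock. A value of 3 reads corresponds to 2.61 and 2.71 normalized counts in auxin A and B, and to 3.81 and 2.97 in mock A and B. Replicates differed by a median of 0.09 on the log2 scale in auxin and 0.14 in mock, and by more than 2-fold for 35 features in auxin and 155 in mock. Auxin A stood apart in mitochondrial rRNA: 15S_rRNA had 37220.1 and 3308 in auxin, against 4071 and 5892 in mock. Normalized counts are relative values, since the size factor brings the typical feature to about the same level in each library. A change in RNA per cell or in the number of cells therefore cannot be told from them, and a median change near 0 over all features follows from the scaling. With 2 cultures per treatment, p-values measure the spread between those cultures. The strand was used in counting, since 65 of the 89 ORF names lying wholly inside a gene on the opposite strand had reads, whereas 11 of the 13 lying wholly inside a gene on the same strand had none.

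The tagged gene itself was not called. DIS3 had 6219 and 5817 in auxin, against 5117 and 5522 in mock (log2 fold change 0.18 ± 0.08 SE, adjusted p = 0.16), and its groups did not overlap. The degron acts on the protein, so the mRNA level does not check depletion. Of the 10 genes of the exosome core, 3 fell and 7 were not called: MTR3 had 1137 and 1104 in auxin, against 1746 and 1557 in mock (log2 fold change -0.56 ± 0.09 SE, adjusted p = 0.0075). RRP43 had 2150.2 and 2326 in auxin, against 2919 and 2759.9 in mock (log2 fold change -0.34 ± 0.08 SE, adjusted p = 0.027). SKI6 had 1537 and 1573 in auxin, against 2065 and 1862 in mock (log2 fold change -0.34 ± 0.09 SE, adjusted p = 0.036). All 3 encode ring subunits. The values of MTR3 were below those of mock in both auxin libraries, but its call was lost without auxin B, and the RRP43 and SKI6 calls were lost without either auxin library. None of the nuclear cofactors RRP6, LRP1 and MPP6 or of the Ski genes SKI2, SKI3, SKI7 and SKI8 was called, with log2 fold changes between -0.28 (SKI2) and 0.03 (MPP6). In the TRAMP complex, the poly(A) polymerase TRF5 rose, with 2769 and 2648 in auxin, against 2166 and 1951 in mock (log2 fold change 0.40 ± 0.09 SE, adjusted p = 0.019), a call that was lost without either auxin library. PAP2, which encodes the other polymerase, and the helicase gene MTR4 were not called, at log2 fold changes of -0.15 and -0.06. NRD1, which encodes the RNA-binding subunit of the Nrd1-Nab3-Sen1 complex, had 17232 and 19782 in auxin, against 8300.4 and 11592 in mock (log2 fold change 0.91 ± 0.16 SE, adjusted p = 0.0083). NAB3 and SEN1 were at 0.42 and -0.00 on the same scale and were not called.

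Of 6343 features with a mean of at least 10 normalized counts, 958 rose and 646 fell at a Benjamini-Hochberg adjusted p under 0.05 with limma, which is a background of 15.1% higher and 10.2% lower. The changes were unequal in size, since 545 of the rises and 21 of the falls were at least 2-fold. The median over all tested features was -0.01 on the log2 scale. Rises were spread over 5 classes: 682 were ORFs with a RefSeq entry, 200 were ORF names without one, 41 were nuclear tRNAs, 32 were snoRNAs and 3 were other noncoding RNAs. Falls were nearly all ORFs with a RefSeq entry, 639 of 646, and the remainder were 6 ORF names without one and GAG1. GAG1 was put in the Ty class by its product name alone, and whether it is a Ty gene was not checked. Without auxin A the counts were 521 higher and 180 lower, without auxin B 480 and 178, and without mock B 1571 and 1335. A count model, edgeR, was run on the reads of auxin A, auxin B and mock A. With mock A alone in its group, the spread came from the auxin pair only. The fit shares all its libraries with limma, so the overlap of its calls with those of limma is no independent check.

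**Figure D1:**
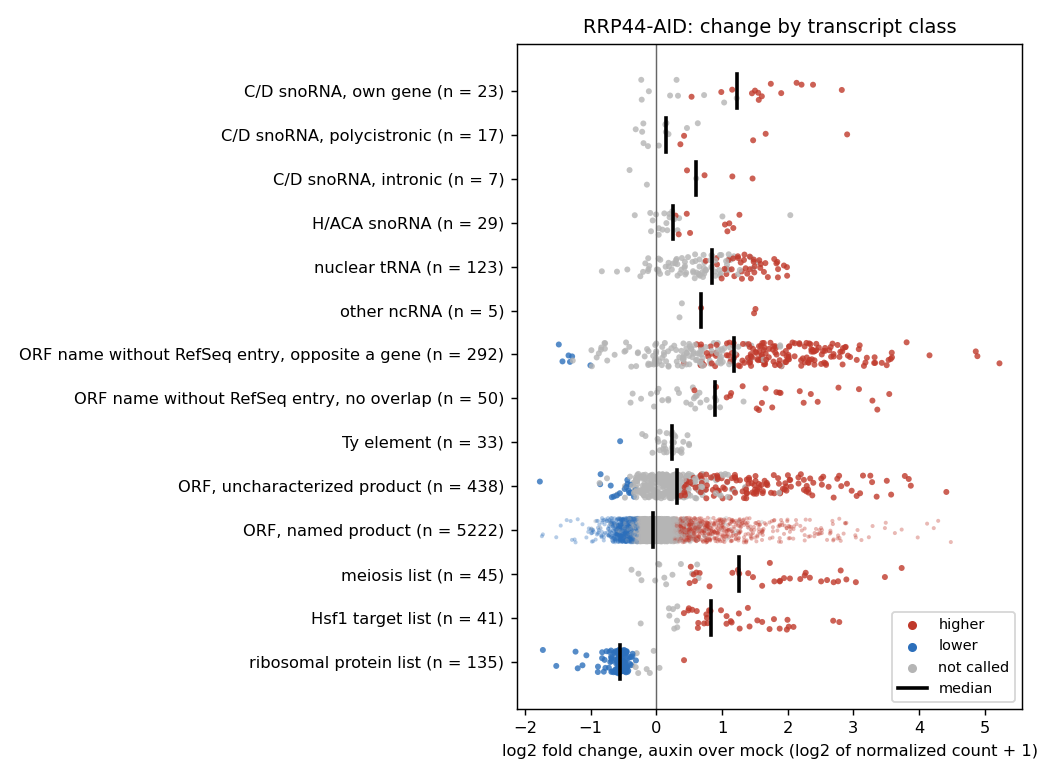
Log2 fold change of auxin over mock on the x axis for the tested features of each class or gene list, 1 point per feature, coloured by limma call, with the class median as a black bar. Points of the snoRNA, tRNA and opposite-strand classes lie mostly right of 0, and the ribosomal protein list lies left of it with a median of -0.54.

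Box C/D snoRNAs guide 2′-O-methylation of rRNA and box H/ACA snoRNAs guide pseudouridylation, and both are released from longer precursors whose 3′ ends are trimmed. Of the 76 snoRNAs, 32 rose and none fell, with a median log2 fold change of 0.36. The count was 19 without auxin B. By box type, 23 of 47 C/D (48.9%) and 9 of 29 H/ACA snoRNAs (31.0%) rose, with medians of 0.61 and 0.26, beside the background of 15.1%. The C/D count was 14 without auxin B, and the H/ACA count was 5 without auxin B and 15 without mock A. Split by gene structure, 14 of 23 C/D snoRNAs with a gene of their own rose (median 1.22), as did 4 of 7 in introns (0.61) and 5 of 17 in polycistronic clusters (0.15). Among H/ACA snoRNAs with a gene of their own, 8 of 27 rose (0.26). As a share of all normalized counts, snoRNAs took 3.11% and 3.54% in auxin, against 3.21% and 3.02% in mock. One of the most abundant, the U3 RNA snR17a, had 129988 and 153259 in auxin, against 183166 and 149243 in mock, and was not called at a log2 fold change of -0.23. In RAT1-AID cells 23 of 47 C/D (median 1.06) and 2 of 29 H/ACA snoRNAs (0.10) rose, beside 10.7% of all features. There 11 of 23 C/D snoRNAs with their own gene (0.97), 5 of 7 intronic (1.85) and 7 of 17 polycistronic ones (1.06) rose. In LAS1-AID cells 6 of 46 C/D (0.23) and 2 of 29 H/ACA snoRNAs (-0.14) rose, beside 16.5% of all features.

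Sequences of 5 snoRNAs that rose are shown so that the boxes can be seen, from the RefSeq R64 genome, read 5′ to 3′ on the strand of the RNA. In the 3 C/D snoRNAs the capitals mark box C, searched as TGATGA in the first 20 bases, and box D, searched as CTGA in the last 20, both on the RNA strand. In the H/ACA snoRNAs they mark the last ACA within 12 bases of the 3′ end.
snR58, chrXV:136088-136183, minus strand: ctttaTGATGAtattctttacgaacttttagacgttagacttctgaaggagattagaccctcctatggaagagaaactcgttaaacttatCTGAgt
snR51, chrXVI:718700-718806, minus strand: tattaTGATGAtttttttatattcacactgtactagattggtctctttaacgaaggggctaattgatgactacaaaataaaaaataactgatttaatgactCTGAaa
snR54, chrXIII:163535-163620, minus strand: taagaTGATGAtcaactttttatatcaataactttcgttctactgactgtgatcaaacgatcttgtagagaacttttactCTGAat
snR161, chrII:307185-307345, minus strand: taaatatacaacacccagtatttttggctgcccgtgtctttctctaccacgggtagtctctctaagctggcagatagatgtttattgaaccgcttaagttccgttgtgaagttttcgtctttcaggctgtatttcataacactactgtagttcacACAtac
snR11, chrXIII:652275-652532, plus strand: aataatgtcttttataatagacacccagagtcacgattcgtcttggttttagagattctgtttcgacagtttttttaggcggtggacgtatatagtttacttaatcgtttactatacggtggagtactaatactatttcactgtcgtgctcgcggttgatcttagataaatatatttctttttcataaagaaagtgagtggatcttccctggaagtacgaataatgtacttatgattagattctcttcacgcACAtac
Box D was found by this search in 45 of the 47 C/D snoRNAs and box C in 36. Box C was present in 21 of the 23 C/D snoRNAs that rose and in 15 of the 24 that were not called.

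snR58, which has a gene of its own, had 425 and 479.7 in auxin, against 59.7 and 66.4 in mock (log2 fold change 2.82 ± 0.15 SE, adjusted p = 0.00014). Its 2 auxin values lay far above both mock values, and the change was nearly equal in the 2 letter pairs, 2.81 in A and 2.83 in B. snR54, which lies in an intron, had 698 and 719 in auxin, against 250.4 and 262 in mock (log2 fold change 1.47 ± 0.11 SE, adjusted p = 0.00038). snR13, another C/D snoRNA, had 7939 and 10686 in auxin, against 3382 and 3123 in mock (log2 fold change 1.50 ± 0.14 SE, adjusted p = 0.00088). Other large rises came with a mock A well under mock B. snR61 had 2453 and 3114 in auxin, against 193 and 701 in mock (log2 fold change 2.90 ± 0.52 SE, adjusted p = 0.0091), snR71 had 1719 and 1904 in auxin, against 151.2 and 788 in mock (log2 fold change 2.39 ± 0.65 SE, adjusted p = 0.039). snR56 had 872 and 1109 in auxin, against 131 and 342 in mock (log2 fold change 2.21 ± 0.40 SE, adjusted p = 0.0094). snR47 had 1811 and 1949 in auxin, against 249 and 731 in mock (log2 fold change 2.14 ± 0.43 SE, adjusted p = 0.014). In each of these the groups did not overlap, and the change was larger in pair A than in pair B: for snR71 3.50 against 1.27, and for snR61 3.66 against 2.15. The snR71 call was lost without auxin B. snR80, an H/ACA snoRNA, had 2807 and 4084 in auxin, against 236 and 2857 in mock and was not called. Mock B exceeded mock A by more than 2-fold for 7 of the 28 snoRNAs of up to 100 bases and for none of the 12 over 250 bases, whereas mock A never exceeded mock B by that much among the shortest. Within these length classes, 16 of 28 and 2 of 12 rose. Across the 76 snoRNAs, length and log2 fold change had a Spearman correlation of -0.39, -0.46 in pair A and -0.26 in pair B, over RNAs that share the same 4 libraries. The part of RNA length in these differences was not tested.

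**Figure D2:**
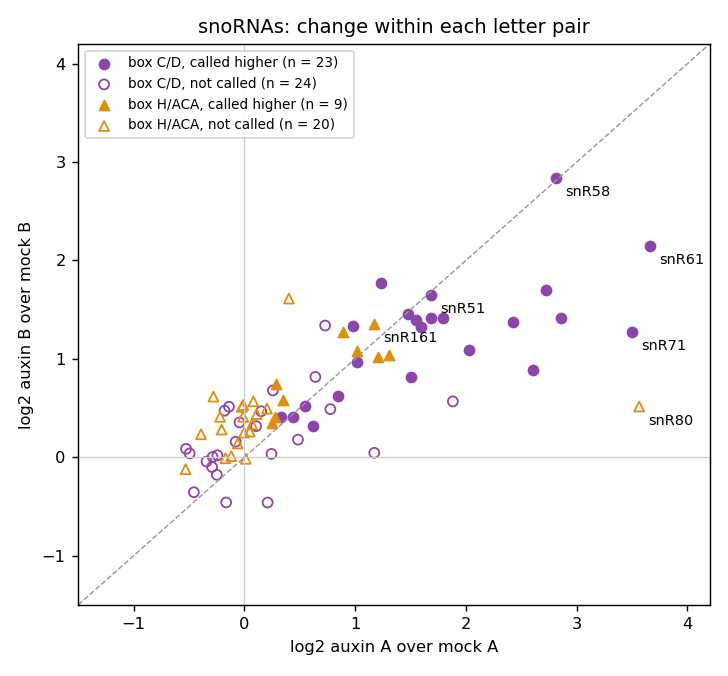
Log2 fold change of each snoRNA within letter pair A (x axis) and pair B (y axis), with C/D snoRNAs as circles, H/ACA snoRNAs as triangles and filled symbols for calls. snR58 and snR51 lie on the dashed line of equal change, whereas snR71, snR61 and snR80 lie below it, with larger changes in pair A.

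Among H/ACA snoRNAs, snR161 had 969 and 1059 in auxin, against 429.6 and 412 in mock (log2 fold change 1.27 ± 0.10 SE, adjusted p = 0.00052). snR11 had 12257 and 14205 in auxin, against 6606 and 5875 in mock (log2 fold change 1.08 ± 0.10 SE, adjusted p = 0.00094). snR36 had 753 and 829 in auxin, against 327 and 408 in mock (log2 fold change 1.11 ± 0.14 SE, adjusted p = 0.0025). The auxin values of all 3 exceeded both mock values. snR191, an intronic H/ACA snoRNA that guides modification of 25S rRNA, had 3248 and 3549 in auxin, against 2739 and 2799 in mock (log2 fold change 0.29 ± 0.08 SE, adjusted p = 0.041), a call that was lost without either auxin library.

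In the 5 polycistronic clusters the last member of the transcript had the highest log2 fold change. The grouping by place in the transcript was made after the values were seen. In the snR41-snR70-snR51 cluster, read from the minus strand of chromosome XVI, snR41 had 385 and 436 in auxin, against 432 and 599 in mock and snR70 had 1087 and 1185 in auxin, against 1293 and 1341 in mock, at log2 fold changes of -0.31 and -0.21. Neither was called. The last member, snR51, had 1831 and 1840.4 in auxin, against 569 and 587 in mock (log2 fold change 1.66 ± 0.09 SE, adjusted p = 0.00013). The same order was seen in snR57-snR55-snR61, where snR57 and snR55 were at 0.63 and -0.19 and the last, snR61, was at 2.90. In the pair snR67 and snR53, the last, snR53, had 109.8 and 148 in auxin, against 36.9 and 55.5 in mock (log2 fold change 1.47 ± 0.27 SE, adjusted p = 0.0098), whereas snR67 had 1302 and 1421 in auxin, against 1037 and 1072 in mock (log2 fold change 0.37 ± 0.09 SE, adjusted p = 0.029). In the other 2 clusters the differences were small: snR128, which follows snR190, was at 0.15 against -0.20, and snR72, the last of 7, was at 0.47 against 0.42 for snR77, the highest of the others. By letter pair, the last member was highest in 4 of 5 clusters in A and in 5 of 5 in B. Medians were 1.47 over the 5 last members and 0.09 over the 12 others. In RAT1-AID cells the last member was highest in 2 of 5 clusters and the medians were 1.18 and 0.97, in LAS1-AID cells in 4 of 5 with 0.41 and 0.08, and in WT cells in 1 of 5 with 0.10 and 0.30. The snR53 call was lost without auxin B, and the snR67 and snR77 calls without either auxin library.

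The 3′ flanks of snoRNA genes often hold short motifs that Nrd1 and Nab3 bind. Searched on the RNA strand as GTAA (Nrd1) and TCTT (Nab3), both were found within 100 bases after 13 of 23 C/D snoRNAs with a gene of their own, 56.5%, after 13 of 27 such H/ACA snoRNAs, 48.1%, and after 19.8% of 5896 ORFs with a RefSeq entry. Both motifs were near the end of snR161 and of snR11, shown in capitals in 30 bases of R64, read 5′ to 3′, and snR47 held 3 TCTT copies in such a stretch.
snR161 flank, chrII:307152-307181, minus strand: tgcGTAAtgccccaaTCTTgataaacagca
snR11 flank, chrXIII:652603-652632, plus strand: ccctggtGTAAgctttcgctgtttcaTCTT
snR47 flank, chrIV:541558-541587, minus strand: catTCTTgctgatttTCTTtttTCTTattc

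Genes just downstream of snoRNAs and snRNAs on the same strand had a median near 0, with large rises in a few. Of 26 tested, 7 rose (26.9%, background 15.1%) and 4 fell (15.4%, background 10.2%), with a median of 0.06, which was -0.0018 without mock A. Upstream neighbours, with ribosomal protein genes left out, rose in 5 of 24 cases on the same strand (20.8%). On the opposite strand 4 of 26 upstream neighbours rose (15.4%), among them HEM4 and YOR277C. These lie on either side of the divergent snR5 and snR31, so each is downstream of one and upstream of the other and counts here as well. YDR042C, an uncharacterized ORF 398 bases after snR47, had 5276 and 4843 in auxin, against 749.8 and 1047 in mock (log2 fold change 2.51 ± 0.16 SE, adjusted p = 0.0002). FLX1, the gene of a mitochondrial FAD transporter 148 bases after snR68, had 4458 and 4545 in auxin, against 1670.0 and 1640.5 in mock (log2 fold change 1.44 ± 0.08 SE, adjusted p = 0.00013). USE1, the gene of an endoplasmic reticulum SNARE 286 bases after snR82, had 3017 and 3043 in auxin, against 951 and 1089.7 in mock (log2 fold change 1.57 ± 0.10 SE, adjusted p = 0.0002). HEM4, a heme synthesis gene 210 bases after snR5, had 1430.3 and 1510.4 in auxin, against 703 and 605 in mock (log2 fold change 1.17 ± 0.11 SE, adjusted p = 0.00086). The auxin libraries of each gene were above both mock libraries. CTO1, 193 bases after snR33, and RGT1, 728 bases after snR69, rose by less, at 0.84 and 0.64, and the ORF name YOR277C, 134 bases after snR31, was at 2.57.

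Genes that meet a snoRNA or snRNA end to end, next downstream but on the opposite strand, fell more often than they rose. This geometry was examined after the values were seen. Of 30 tested, 10 fell and 2 rose, with a median of -0.24, against the background of 10.2% lower. Of the 10, RPL31A, RPS8A and RPL42B are ribosomal protein genes, and with that class left out, an alternative added after seeing the data, 7 of 26 fell (26.9%) and 2 rose, with a median of -0.19. With ribosomal protein genes included, 12 of 30 of these neighbours fell in LAS1-AID cells (40.0%, background there 17.2% lower). In RAT1-AID cells 3 of 31 fell (9.68%, background there 6.02% lower). In RRP44-AID the count of falls, again with that class included, was 6 without auxin A. EFM3, the gene of a protein methyltransferase whose end is 57 bases from that of snR3, had 166 and 145 in auxin, against 479 and 379 in mock (log2 fold change -1.45 ± 0.16 SE, adjusted p = 0.0017). LIN1, 66 bases from snR71, had 82.8 and 72.1 in auxin, against 226 and 177 in mock (log2 fold change -1.36 ± 0.19 SE, adjusted p = 0.0039). CUE5, a ubiquitin-binding autophagy adapter gene 104 bases from snR62, had 628 and 507 in auxin, against 1577 and 1231 in mock (log2 fold change -1.30 ± 0.16 SE, adjusted p = 0.0022). MMS2, 175 bases from snR10, and POP6, 114 bases from snR46, were at -0.99 and -0.96. These 5 genes had higher values in both mock libraries than in either auxin library. The facing snoRNAs themselves differed: snR71 and snR62 rose, while snR3, snR46 and snR10 were at 0.32, -0.00 and 1.01 and were not called. On the other strand of CUE5, the ORF name YOR041C had 987 and 1041 in auxin, against 108 and 272 in mock (log2 fold change 2.56 ± 0.38 SE, adjusted p = 0.0046). Its counts were 179% of those of CUE5 in auxin and 13.5% in mock. Of the neighbours upstream, 4 of 29 on the opposite strand and 6 of 30 on the same strand fell, and 3 of those 4 and all of those 6 are ribosomal protein genes, a class that fell nearly throughout.

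Nuclear tRNAs rose as well. Of 275 genes, 123 passed the filter on low values, 41 of those rose (33.3%, background 15.1%) and none fell, with a median of 0.85. Of the 108 with a mock mean of at least 10, 35 rose, with a median of 0.82. The count was 20 without auxin A and 10 without auxin B. Together the 275 genes took 0.0345% and 0.0426% of normalized counts in auxin, against 0.0181% and 0.0185% in mock. Mature tRNA is short and modified and is poorly captured by such libraries, and tRNA genes of a family share sequence, so the level of a single copy is uncertain. The tyrosine gene tY(GUA)J1 had 99.4 and 136 in auxin, against 30.5 and 26.7 in mock (log2 fold change 1.99 ± 0.25 SE, adjusted p = 0.0024). The isoleucine gene tI(AAU)E2 had 74.1 and 112 in auxin, against 24.1 and 21.8 in mock (log2 fold change 1.94 ± 0.28 SE, adjusted p = 0.0043). Neither overlapped with mock. tS(CGA)C had 42.7 and 46.9 in auxin, against 11.4 and 11.9 in mock (log2 fold change 1.85 ± 0.30 SE, adjusted p = 0.0064), and its call was lost without either auxin library. Families whose genes hold an intron, which the cell removes after transcription, had 17 of 40 called and a median of 1.05, and the others had 24 of 83 and 0.73. Of the tryptophan family tW(CCA), 5 of 6 tested copies rose (median 1.58), and of the tyrosine family tY(GUA), 3 of 4 (1.79), both with introns. The split by introns was made after the values were seen.

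Other noncoding RNAs varied. PWR1, a noncoding RNA at the FLO11 locus, had 56.7 and 51.4 in auxin, against 17.8 and 18.8 in mock (log2 fold change 1.51 ± 0.27 SE, adjusted p = 0.0086). RNA170 had 162 and 172 in auxin, against 66.1 and 52.5 in mock (log2 fold change 1.49 ± 0.19 SE, adjusted p = 0.0029). SRG1, whose transcription across the SER3 promoter represses SER3, had 4558 and 6119 in auxin, against 3064 and 3534 in mock (log2 fold change 0.68 ± 0.15 SE, adjusted p = 0.017). The downstream gene SER3 had 5704 and 7012 in auxin, against 2449 and 3228 in mock (log2 fold change 1.17 ± 0.15 SE, adjusted p = 0.003). All these auxin values were above mock, but the PWR1 call was lost without either auxin library and the SRG1 call without auxin B. ICR1 and RUF20 were at 0.35 and 0.39 and were not called, and the other 6 of the 11 such RNAs did not reach the filter. None of the 5 tested spliceosomal snRNA features was called. The U2 RNA LSR1 had 354502 and 456497 in auxin, against 397700.0 and 476672 in mock, with overlapping groups, and U4, snR14, had 533 and 772 in auxin, against 365 and 466 in mock, at 0.64. The RNase P and MRP RNAs, the SRP RNA SCR1 and the telomerase RNA TLC1 were not called, with log2 fold changes of 0.21 (RPR1), -0.03 (NME1), -0.16 (SCR1) and -0.00 (TLC1). Of 33 tested features in the Ty class 1 fell, GAG1, which was placed there by its product name alone. Of 20 mitochondrial ORFs none was called. The 14 rDNA features did not reach the filter in these rRNA-depleted libraries.

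The ORF names without a RefSeq entry mark stretches that the annotation of the study lists as ORFs but RefSeq does not hold as genes, most of them overlapping a known gene. Of 679, 404 passed the filter, 200 of those rose and 6 fell, with a median of 0.97. The count of rises was 111 without auxin A and 103 without auxin B. Since low features pass the filter more easily when they rise, the count was repeated on those with a mock mean of at least 10, an alternative added after seeing the data, which left 140 rises among 331. As a class they took 0.237% and 0.234% of normalized counts in auxin, against 0.128% and 0.132% in mock. By position, 161 of 292 tested names lying opposite a gene rose (55.1%, median 1.18), as did 23 of 50 with no overlap (46.0%, 0.90), 13 of 51 on the same strand as the gene they overlap (25.5%, 0.29) and 3 of 11 with genes on both strands (27.3%, 0.56). With the mock mean of at least 10, the rises were 110 of 230 opposite a gene, 16 of 41 with no overlap, 11 of 50 on the same strand and 3 of 10 on both. Without auxin A and auxin B the opposite-strand count was 92 and 85. The class rose in the other degron strains too. In RAT1-AID cells 177 of 451 tested names rose (median 1.03), and 146 of 329 of those opposite a gene (1.30). In LAS1-AID cells 90 of 278 rose (0.44), and 67 of 191 of those opposite a gene (0.59).

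YGR190C, opposite the amino acid permease gene HIP1, had 456 and 375 in auxin, against 11.4 and 8.92 in mock (log2 fold change 5.22 ± 0.23 SE, adjusted p = 0.00012), the largest log2 fold change of the class. HIP1 itself had 2735 and 2713 in auxin, against 3344 and 4089 in mock (log2 fold change -0.44 ± 0.11 SE, adjusted p = 0.027). YMR193C-A, opposite RPL36A, had 127 and 134 in auxin, against 8.9 and 7.93 in mock (log2 fold change 3.81 ± 0.26 SE, adjusted p = 0.00028). YDL159C-B, inside the kinase gene STE7 on the other strand, had 39.2 and 20.7 in auxin, against 0 and 0 in mock, and both mock values of 0 are under the floor of 3 reads per library. YGR291C, which overlaps no gene, had 132 and 149 in auxin, against 14 and 12.9 in mock (log2 fold change 3.29 ± 0.24 SE, adjusted p = 0.00034). YOR050C, also free of overlap, had 271 and 261 in auxin, against 30.5 and 47.6 in mock (log2 fold change 2.77 ± 0.24 SE, adjusted p = 0.00069). The groups did not overlap for any of these names. Over the 161 opposite-strand rises, the counts of the name were a median of 7.87% of those of the gene it faced in auxin and 1.59% in mock. Of the facing genes 157 were tested: 20 rose and 19 fell, with a median of -0.09, beside backgrounds of 15.1% higher and 10.2% lower. The 6 names that fell, YPL142C, YDL228C, YGL102C, YLL044W, YDR417C and YGL123C-A, lie opposite RPL33A, SSB1, RPL28, RPL8B, RPL12B and RPS2, all of which fell. The counts of these names were a median of 0.182% of those of the facing gene in auxin and 0.321% in mock, and whether reads of the gene were counted on the other strand was not tested.

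**Figure D3:**
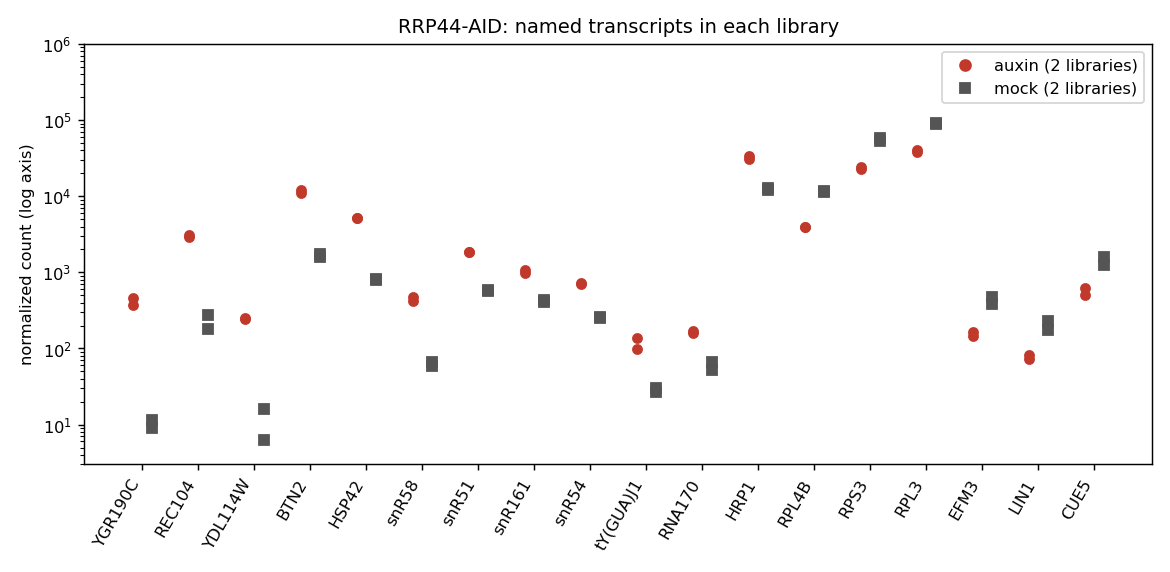
Normalized count on a log axis for 18 named transcripts, with the 2 auxin libraries as red circles and the 2 mock libraries as grey squares. From YGR190C to HRP1 the auxin values lie above mock, and from RPL4B to CUE5 they lie below it.

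Among ORFs with a RefSeq entry 682 of 5660 tested rose and 639 fell, and the median was -0.03. Without auxin A the counts were 361 and 174, without auxin B 343 and 177, and without mock B 1195 and 1309. Rises were most frequent at low levels, in 99 of 225 ORFs with a mean of 30 to 100 normalized counts and in 21 of 446 over 10000 (4.71%), whereas falls were most frequent at the highest levels, in 145 of those 446 (32.5%). Ribosomal protein genes are abundant, with 14.7% and 13.9% of normalized counts in mock, and 126 of 135 fell. How many of the 145 falls are theirs was not counted, so level and this class are not separated here. ORFs whose product RefSeq calls uncharacterized or hypothetical rose in 135 of 438 cases, with a median of 0.32, against 547 of 5222 and -0.05 for those with a named product.

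**Figure D4:**
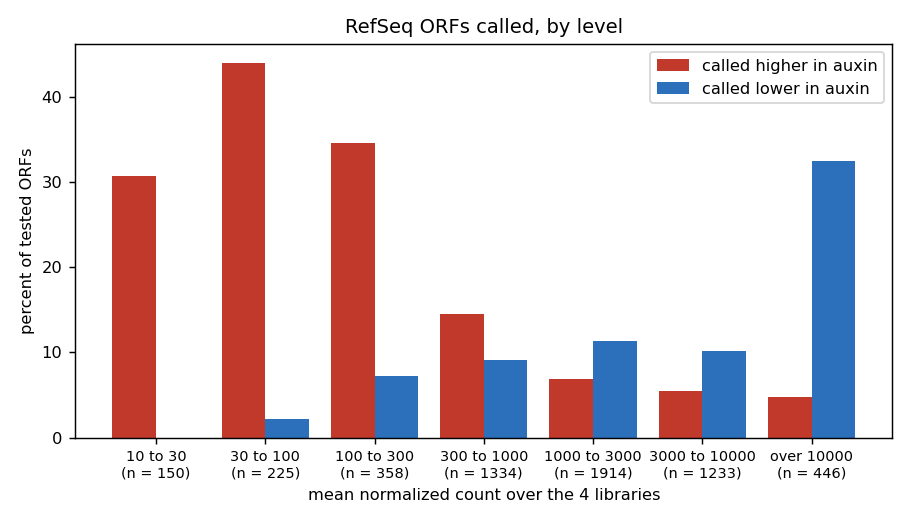
Percent of tested RefSeq ORFs called higher (red bars) and lower (blue bars) in auxin, by mean normalized count over the 4 libraries. The share called higher is highest at 30 to 100 counts (99 of 225) and is 4.71% over 10000, where the share called lower is 32.5%.

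Among the largest rises by log2 fold change of RefSeq ORFs with a mean of at least 100 were transcripts nearly silent in mock. YDL114W, a putative short-chain dehydrogenase gene, had 244 and 252 in auxin, against 6.35 and 15.9 in mock (log2 fold change 4.48 ± 0.39 SE, adjusted p = 0.0007). RRT5 had 308 and 342 in auxin, against 22.9 and 16.8 in mock (log2 fold change 3.98 ± 0.22 SE, adjusted p = 0.00014). YGL118C had 387 and 375 in auxin, against 44.5 and 29.7 in mock (log2 fold change 3.35 ± 0.22 SE, adjusted p = 0.00026). The auxin values of these 3 were at least as high as 244 and the mock values at most 44.5. MBR1, DIT2, YCR041W and YCL001W-B followed at 3.03, 2.89, 2.90 and 3.05. YHR054C, at 4.41, lies in the tandem repeat of the CUP1 locus, and its copies share sequence, so its own level is uncertain. The transcription factor gene ADR1 was a more abundant case, with 7498 and 8290.3 in auxin, against 1075 and 1757 in mock (log2 fold change 2.52 ± 0.21 SE, adjusted p = 0.00057). The inositol synthesis gene INO1 had 1639 and 1751 in auxin, against 247 and 398 in mock (log2 fold change 2.43 ± 0.21 SE, adjusted p = 0.00069).

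Genes of meiosis and sporulation, which are held low in haploid cells in rich medium, rose as a group. Of 51 listed, 45 were tested, 32 rose (background 15.1%) and none fell. The median was 1.26 beside -0.01 over all features, and 29 of the 41 with a mock mean of at least 10 rose. The count of rises was 20 without auxin A. RefSeq ORFs of low level also rose often, in 99 of 225 with a mean of 30 to 100 normalized counts. With a mean of 100 to 300, 124 of 358 rose. The meiosis median was 0.81 with a mean of at least 100. The part of level in the rise of this list was not tested. REC104, a gene of the meiotic double-strand break machinery, had 3051 and 2899 in auxin, against 179 and 276 in mock (log2 fold change 3.73 ± 0.19 SE, adjusted p = 0.00013). The spore wall gene DIT2 had 587 and 540.1 in auxin, against 73.7 and 76.3 in mock (log2 fold change 2.89 ± 0.14 SE, adjusted p = 0.00013). NDT80, the gene of the factor that switches on middle meiotic genes, had 472 and 566 in auxin, against 105 and 119.9 in mock (log2 fold change 2.19 ± 0.15 SE, adjusted p = 0.0003). SPS1, a sporulation kinase gene, had 1015 and 1052 in auxin, against 219.9 and 206 in mock (log2 fold change 2.27 ± 0.11 SE, adjusted p = 0.00013). In these 4 the groups did not overlap. ZIP1, of the synaptonemal complex, was at 1.40, and the intron-containing genes MND1 and REC102 were at 2.26 and 1.94. IME1, the master inducer, had 435 and 344 in auxin, against 369.8 and 379 in mock and was not called, with overlapping groups, and IME2, the kinase gene it induces, had 457 and 484 in auxin, against 302 and 332 in mock (log2 fold change 0.57 ± 0.12 SE, adjusted p = 0.015). SPO11, SPO16 and REC8 were at -0.02, -0.27 and 0.25 and were not called.

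Several genes are known to be kept low by early termination of their own transcription, and 12 of them were listed. Of these, 5 rose (41.7%, background 15.1%) and 1 fell (8.33%, background 10.2%), with a median of 0.25. IMD2, a guanine nucleotide synthesis gene, had 7865 and 7448 in auxin, against 2928 and 2290.3 in mock (log2 fold change 1.56 ± 0.12 SE, adjusted p = 0.00043). HRP1, the gene of a polyadenylation factor, had 30498 and 33491 in auxin, against 12121 and 12636 in mock (log2 fold change 1.37 ± 0.08 SE, adjusted p = 0.0002). URA8, a CTP synthase gene, had 4547 and 4224 in auxin, against 2596 and 2193 in mock (log2 fold change 0.88 ± 0.10 SE, adjusted p = 0.0021). In all 3 the auxin values lay above both mock values, as they did for NRD1, given with its complex. RPL9B was the only ribosomal protein gene that rose, with 6968 and 8481 in auxin, against 6194 and 5309 in mock (log2 fold change 0.42 ± 0.12 SE, adjusted p = 0.045), a call that was lost without auxin B. URA2, ADE12 and IMD3 were at -0.13, -0.21 and 0.00 and were not called, and TIS11 had 770.5 and 980.2 in auxin, against 1137 and 1334 in mock (log2 fold change -0.50 ± 0.14 SE, adjusted p = 0.044), a call that was lost without auxin A. Among 14 genes of poly(A) addition and mRNA export 4 rose and none fell: beside HRP1, the poly(A)-binding protein gene NAB2 had 8231 and 9108 in auxin, against 4185 and 4825 in mock (log2 fold change 0.95 ± 0.10 SE, adjusted p = 0.0013), RNA14 was at 0.57, and YRA1 was at 0.39, a call that was lost without either auxin library.

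The transcription factor Hsf1 drives chaperone genes, and the copy of the study's target list used here holds 41 genes. Of these, 33 rose and none fell, with a median of 0.83. The lowest count over the libraries left out was 29. BTN2, whose product sorts aggregated proteins, had 11916 and 11104 in auxin, against 1600.1 and 1739.5 in mock (log2 fold change 2.78 ± 0.08 SE, adjusted p = 3.4e-05). The small heat shock protein gene HSP42 had 5155 and 5238 in auxin, against 822 and 785 in mock (log2 fold change 2.69 ± 0.08 SE, adjusted p = 3.4e-05). The Hsp90 gene HSP82 had 54647 and 55036 in auxin, against 16105 and 11417 in mock (log2 fold change 2.02 ± 0.16 SE, adjusted p = 0.00042). The disaggregase gene HSP104 had 30042 and 34015 in auxin, against 10039 and 8499 in mock (log2 fold change 1.79 ± 0.11 SE, adjusted p = 0.0002). In all 4 the groups lay apart by more than the spread of either. Among the members not called were HSC82 at 0.32, SSA2 at 0.32 and SSE1 at 0.27. Hsf1 binds heat shock elements, searched as 3 alternately inverted GAA units with 2 bases between units, on both strands, in the 250 bases before each ORF. They were found before 12 of the 41 targets, 29.3%, and before 0.763% of 5896 RefSeq ORFs. The element of HSP42, 243 bases before the ORF, is shown in capitals in 30 bases of R64, read 5′ to 3′ on the strand of the gene.
HSP42 element, chrIV:806371-806400, plus strand: ttaaaagTTCTGGAAGGTTCgcgaattgag
Of the 12 targets with such an element 9 rose, and of the 29 without one 24 rose. Outside the list, 6 of 33 tested ORFs with an element rose (18.2%, background 15.1%).

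Other lists of the study held fewer calls. Of 205 tested targets of the general stress factors Msn2 and Msn4 outside the Hsf1 list, 40 rose and 10 fell, with a median of 0.07, which is a share of 19.5% beside the background of 15.1%. Of 23 genes of the unfolded protein response 7 rose (30.4%) and 2 fell (8.70%, background 10.2%), with a median of 0.04. Those that rose include KAR2, the Hsp70 of the endoplasmic reticulum, with 44756 and 48936 in auxin, against 28757 and 25001 in mock (log2 fold change 0.80 ± 0.10 SE, adjusted p = 0.0027), and the oxidoreductase gene ERO1, with 9996 and 9911 in auxin, against 5448 and 4575 in mock (adjusted p = 0.0011). Of 27 proteasome subunit genes none was called (0.01), while RPN4, the gene of their transcription factor and itself in the Hsf1 list, had 14871 and 14854 in auxin, against 6351 and 7222 in mock (log2 fold change 1.13 ± 0.09 SE, adjusted p = 0.00042).

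Genes of ribosomal proteins fell together. Of the 135 in the copy of the study's list used here, 126 fell and 1 rose, with a median of -0.54 beside -0.01 over all features. The count was 56 without auxin A. Falls were found in both subunits and with or without an intron, in 79 large-subunit genes (75 fell, -0.52) and 56 small-subunit genes (51 fell, -0.55), and in the 89 with an intron (83 fell, -0.55) and the 46 without (43 fell, -0.54). RPL22B had 916 and 889 in auxin, against 3219 and 2769 in mock (log2 fold change -1.72 ± 0.10 SE, adjusted p = 0.00017). RPL4B had 3970.2 and 3984 in auxin, against 11224 and 11613 in mock (log2 fold change -1.52 ± 0.07 SE, adjusted p = 0.00013). RPS3 had 22643 and 24510.1 in auxin, against 57336 and 53109.9 in mock (log2 fold change -1.23 ± 0.09 SE, adjusted p = 0.00037). RPL3 had 37974 and 40698 in auxin, against 91157 and 88865 in mock (log2 fold change -1.19 ± 0.09 SE, adjusted p = 0.00038). No auxin value reached a mock value in these 4. Most ribosomal protein genes of yeast are pairs of near-identical copies, so the split between copies such as RPL4A and RPL4B is uncertain. RPL15A and RPL4A were at -1.12 and -1.06. Among intron-containing ORFs outside the ribosomal proteins, 27 of 169 rose and 15 fell, with a median of -0.08. Both shares were near the backgrounds of 15.1% higher and 10.2% lower. Of 168 other ribosome biogenesis genes in the copy of the study's list 18 fell (10.7%, background 10.2%) and none rose (-0.13). UTP22, of the small-subunit processome, had 8447 and 8267 in auxin, against 10568 and 12233 in mock (log2 fold change -0.44 ± 0.09 SE, adjusted p = 0.015), a call that was lost without either auxin library.

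Further falls were scattered. IML3, a kinetochore gene, had 148 and 144 in auxin, against 374 and 341 in mock (log2 fold change -1.28 ± 0.13 SE, adjusted p = 0.0013). The splicing factor gene BUD13 had 195 and 194 in auxin, against 456 and 467 in mock (log2 fold change -1.24 ± 0.12 SE, adjusted p = 0.00095). Both sets of auxin values were under mock. Of 24 ergosterol synthesis genes 5 fell (20.8%, background 10.2%, median -0.22), among them MVD1 at -0.54 and ERG11 at -0.43. Without auxin B both calls were lost, as was that of ERG11 without auxin A. Of the 11 core RNA polymerase II genes 4 fell (36.4%, background 10.2%, median -0.19). RPB8, RPB7, RPB3 and RPB5 were at -0.43, -0.40, -0.31 and -0.30, and all 4 calls were lost without either auxin library. RAT1 and XRN1 are the genes of the nuclear and cytoplasmic 5′-to-3′ exonucleases. They were the 2 of 12 other ribonuclease genes that were called (16.7%, background 10.2% lower), at -0.37 and -0.32, and both calls were lost without either auxin library. Of 20 glycolysis genes 4 rose and none fell (0.07), of 54 amino acid synthesis genes 5 rose and 8 fell (-0.10), of 20 genes of the G1/S transition 2 fell (-0.11), and of 10 histone genes none was called (-0.08).

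The same treatments in other strains show where the RRP44-AID libraries differ. The comparisons of strains share no libraries with each other except those of RRP44-AID. In WT cells limma called none of 6295 features (0.0%), with 48 at an unadjusted p under 0.05, and edgeR on the recovered reads called none of 6306, with 51. Tested as an interaction of strain and treatment, the change was higher in RRP44-AID than in WT cells for 259 of 6199 features (4.18%) and lower for 56 (0.903%). With the letters as a block the counts were 435 and 141. They were 35 and 1 without auxin A, 39 and 1 without auxin B, 107 and 4 without mock A, and 141 and 17 without mock B. Those higher in RRP44-AID included 36 of 319 ORF names without a RefSeq entry, 26 of 41 Hsf1 targets and 18 of 43 meiosis genes, and those lower included 13 of 135 ribosomal protein genes. BTN2 changed by 2.78 in RRP44-AID and -0.34 in WT cells, and the difference was 3.13 ± 0.21 SE with adjusted p = 0.002. For snR51 the changes were 1.66 and -0.36, with a difference of 2.03 ± 0.23 SE with adjusted p = 0.0048.

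RAT1-AID cells lose the nuclear 5′-to-3′ exonuclease. There limma called 698 of 6524 features higher (10.7%) and 393 lower (6.02%). The change differed from that in RRP44-AID for 137 of 6305 features, 59 higher (0.936%) and 78 lower (1.24%) in RRP44-AID. These counts were 3 and 8 without auxin A, 2 and 7 without auxin B, 17 and 41 without mock A, and 22 and 38 without mock B. Among snoRNAs 3 were higher and 5 lower. snR51 was at 1.66 in RRP44-AID and 0.21 in RAT1-AID cells, a difference of 1.46 ± 0.22 SE with adjusted p = 0.019, and snR11 was at 1.08 and 0.10, a difference of 0.98 ± 0.19 SE with adjusted p = 0.046. Of 17 polycistronic C/D members, snR51 was higher in RRP44-AID, 3 were lower and 13 were not called. Among the lower ones, snR77 was at 0.42 in RRP44-AID and 2.69 in RAT1-AID cells, a difference of -2.27 ± 0.18 SE with adjusted p = 0.0015, and snR67 was at 0.37 and 2.11, a difference of -1.74 ± 0.28 SE with adjusted p = 0.021. The Hsf1 target HSP26 had a change of 0.25 in RAT1-AID cells and was higher in RRP44-AID by 1.75 ± 0.18 SE with adjusted p = 0.0057, and the cell wall gene PIR5 was at 2.52 and -0.07, a difference of 2.59 ± 0.30 SE with adjusted p = 0.0084. Of 375 ORF names without a RefSeq entry 8 were lower and 1 higher in RRP44-AID. Of 45 meiosis genes 8 were lower and 1 higher in RRP44-AID, and the medians were 1.26 in RRP44-AID and 1.90 in RAT1-AID cells. SPS1, a sporulation gene, was among the lower ones, at 2.27 against 5.04, a difference of -2.77 ± 0.17 SE with adjusted p = 0.00039. Ribosomal protein genes had medians of -0.54 in RRP44-AID and -0.08 in RAT1-AID cells, but the interaction was called for 1 of 135, RPL7B, whose difference ran the other way, at -0.04 in RRP44-AID and -0.83 in RAT1-AID cells. No ribosomal protein gene was called lower in RRP44-AID than in RAT1-AID cells. HSP42, REC104 and YGR190C were at 2.69, 3.73 and 5.22 in RRP44-AID and at 2.01, 1.90 and 3.08 in RAT1-AID cells, and the interaction was called for REC104 alone (adjusted p = 0.02).

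LAS1-AID cells lose an endonuclease that cuts pre-rRNA. There 1006 of 6103 features were called higher (16.5%) and 1052 lower (17.2%). The change was higher in RRP44-AID for 39 of 6090 features (0.64%) and lower for 10 (0.164%). With the letters as a block the counts were 116 and 48. They were 2 and 0 without auxin A, 9 and 0 without auxin B, 25 and 5 without mock A, and 108 and 22 without mock B. YGR190C was at 5.22 in RRP44-AID, against 1.96 in LAS1-AID, a difference of 3.26 ± 0.57 SE with adjusted p = 0.043. REC104 was at 3.73 and 1.84, a difference of 1.90 ± 0.29 SE with adjusted p = 0.031. Neighbours of snoRNAs were among the differences. FLX1 was at 1.44 and 0.61, a difference of 0.83 ± 0.11 SE with adjusted p = 0.013, YDR042C was at 2.51 and 0.92, a difference of 1.59 ± 0.22 SE with adjusted p = 0.019, and LIN1 was at -1.36 and 0.19, a difference of -1.55 ± 0.24 SE with adjusted p = 0.032. Nuclear tRNAs had a median of 0.85 in RRP44-AID, against 1.67 in LAS1-AID cells, and the interaction was called lower in RRP44-AID for 2 of 97 tested in both, tI(AAU)G and tW(CCA)P. For Hsf1 targets the medians were 0.83 and 1.06, with 1 gene higher and 1 lower of 41. The higher one was HSP26, with a difference of 1.51 ± 0.16 SE with adjusted p = 0.0084, and the lower one was the Hsp70 gene SSA4, at 1.99 and 3.01, a difference of -1.02 ± 0.12 SE with adjusted p = 0.011.

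**Figure D5:**
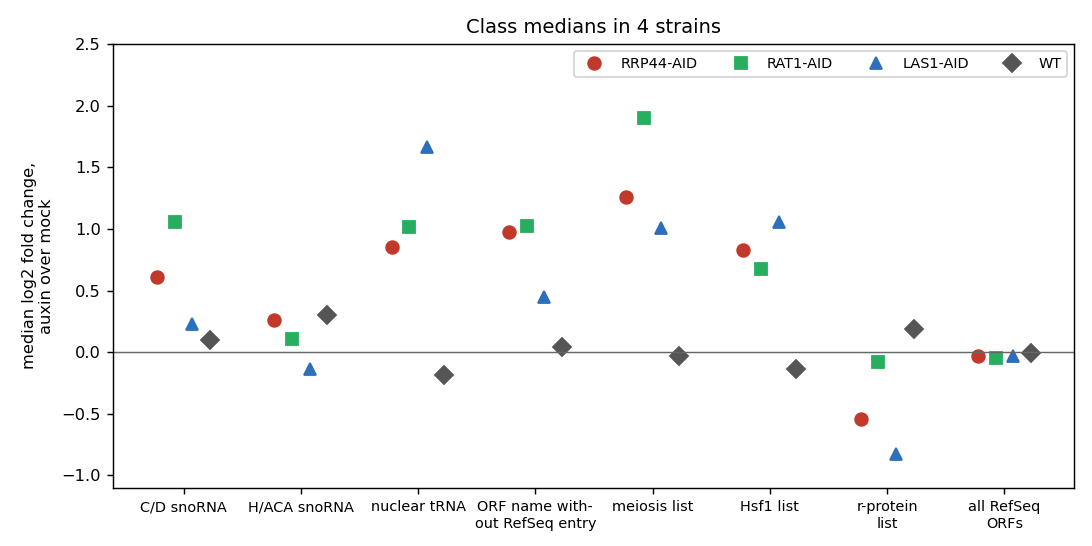
Median log2 fold change of auxin over mock (y axis) for 8 classes or lists in RRP44-AID, RAT1-AID, LAS1-AID and WT cells, 1 symbol per strain. C/D snoRNAs are at 0.61 in RRP44-AID and 1.06 in RAT1-AID cells, ribosomal protein genes are at -0.54 in RRP44-AID, against -0.82 in LAS1-AID, and medians of WT cells lie between -0.19 and 0.30.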

How the data were processed

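RNA-seq of total, rRNA-depleted RNA from 4 RRP44-AID libraries was used, with the 12 libraries of RAT1-AID, LAS1-AID and WT cells for comparison. The deposited values carry the unit signal: the authors trimmed reads with Cutadapt, mapped them with TopHat 2.1.0 to R64, counted reads per gene of Ensembl release 91 with HTSeq, and divided each count by a DESeq2 size factor. Positions of ORF names without a RefSeq entry came from other columns of a deposited table, whose expression values were not used here. The HTSeq strand setting was not given in the sources used here.

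Features with a mean of at least 10 were tested with limma 3.58.1 (R 4.3.3) on log2(value + 1) with an intensity trend, auxin against mock, two-sided, with Benjamini-Hochberg adjustment over all features tested and a threshold of 0.05. Fold changes on this scale understate the change of low features. Differences between strains were limma interactions on 8 libraries. Replicates come from separate days per the labels and from separate isolates per the study's methods. The main tests did not pair libraries. Libraries of a letter were taken as paired only for the changes given by letter pair and for the alternative with the letters as a block. Same-letter deviations in RRP44-AID had a correlation of 0.25. Values are whole multiples of the smallest value within 0.001 in 100% of cases, and edgeR 4.0.16 was run on the recovered reads of auxin A, auxin B and mock A, an alternative chosen after seeing the data, since the step of mock B lies too near 1 to be told from rounding.

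Classes came from the RefSeq R64 annotation and feature names, and gene lists from textbook knowledge or the study. The features and lists were chosen with earlier results of these data known. The text names exosome-related genes, the members of short lists, and up to 5 features per class, and 10 rises and 10 falls among RefSeq features, with the largest absolute log2 fold change among called features that moved the same way in pairs A and B and had a mean of at least 100 (10 for noncoding RNA and ORF names). Other genes named were chosen after their values were seen, and 1 gene that the rule names is not reported here. Tests were checked on simulated data.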

Additional observations from a re-analysis of the deposited data

Results flagged for a closer look

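Each result here is a difference between the change in RRP44-AID and that in another strain, tested as a limma interaction. Some genes were called in opposite directions in the 2 strains. Relative to RAT1-AID cells, CTO1 differed by 1.76, MPO1 by 2.45, URA8 by 1.47, PBA1 by 1.53, PTH4 by 1.44, GRS2 by 1.46, MDM30 by -1.02 and CIN2 by -3.35 on the log2 scale. Relative to LAS1-AID cells, CTO1 differed by 1.35, YIL092W by 0.91, URA8 by 1.26, RPL9B by 1.62, HEM4 by 1.67 and SSU1 by 0.94. Over all features, the change was higher in RRP44-AID than in WT cells for 259 features and lower for 56, higher than in RAT1-AID for 59 and lower for 78, and higher than in LAS1-AID for 39 and lower for 10. No cause of these differences was tested.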

How the results depend on the processing

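No named call changed sign under the alternatives run. The median of same-strand downstream neighbours was 0.06, and -0.0018 without mock A, and RefSeq ORFs had more rises than falls (682 and 639) but fewer without mock B (1195 and 1309). Of 154 named calls, 52 were lost under some alternative, mostly without 1 auxin library, and none with the letters as a replicate block. With the block, calls were 1273 higher and 912 lower, and the interaction counts that moved by over 1.5 times were those with WT, 435 and 141, and LAS1-AID, 116 and 48. With a mean of at least 100, 607 features were higher, and 55 ORF names (median 0.67), 42 opposite-strand names (0.91), 10 tRNAs (1.34), 17 meiosis genes (0.81), and 137 features higher than in WT and 51 lower than in RAT1-AID. Without the intensity trend 359 fell, 355 of them RefSeq ORFs. With a pseudocount of 10 the opposite-strand median was 0.90, and with a mock mean of at least 10 it was 0.91. edgeR called 1483 and 1271. The cause of these shifts was not tested, except that a higher minimum tests fewer features.

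Leaving out each library in turn gave 480 to 1571 higher and 178 to 1335 lower, and for RefSeq ORFs 343 to 1195 and 174 to 1309. Rises ranged from 103 to 246 for ORF names, 85 to 191 for opposite-strand names, 19 to 42 for snoRNAs, 14 to 29 for C/D (medians 0.48 to 0.93), 5 to 15 for H/ACA, 10 to 61 for tRNAs, 1 to 4 for other noncoding RNAs (0.49 to 0.89) and 20 to 32 for meiosis genes. Falls ranged from 56 to 128 for ribosomal protein genes and 6 to 14 for opposite-strand downstream neighbours. Counts against WT ranged from 35 to 141 higher and 1 to 17 lower, against RAT1-AID from 2 to 22 and 7 to 41, and against LAS1-AID from 2 to 108 and 0 to 22. DESeq2 and a 4-library edgeR fit were not run.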
